A study of Mus musculus with 28 samples.

Results

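The genes described here encode lysine methyltransferases, lysine demethylases and proteins named with them. They are the transcript clusters (array rows) with exactly 1 gene symbol that begins with Kmt, Kdm, Setd, Prdm, Suv39h, Ezh, Ehmt, Nsd or Smyd, taken once per gene by the row with the highest mean over all arrays. The rule found 63 genes of the 19938 measured, with 69 rows. It goes by gene name and mean level, but the list was chosen with earlier results of these data known. Shares of the 63 that were called therefore only describe this list. Each gene was given a role class, which does not state that its product is an active enzyme. The classes held 3 genes for methyltransferases of histone H4 lysine 20 (H4K20), 8 of H3K4, 5 of H3K9 and 4 of H3K36. They also held 3 genes of the H3K27 enzyme and its inhibitor, 4 other SETD proteins, 5 SMYD proteins, 12 PRDM proteins and 18 lysine demethylases. The last gene, Nsdhl, encodes an enzyme of sterol synthesis and matched the rule by its name only. Suv39h1, whose product trimethylates H3K9, had no row with a single symbol and is not described.

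Lysine methyltransferases attach methyl groups to lysines of histones and other proteins, and lysine demethylases remove them. Methylation of H3K4 and H3K36 is found at active genes, and that of H3K9, H3K27 and H4K20 is linked to silent chromatin. In neurons several of these enzymes are required for memory, and mutations in many of the human genes cause intellectual disability. Histone deacetylase inhibitors such as trichostatin A (TSA) act on acetylation, the other large class of lysine marks.

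The 28 arrays held hippocampal RNA of 3 month old C57/DBA F1 hybrid female mice, either cbp+/- mice, which have a single intact copy of the gene for the histone acetyltransferase CBP (Crebbp), or their wild-type littermates. The hippocampus was dissected 75 min after an intraperitoneal injection of TSA (2.4 mg/kg). Novelty meant 1 h in an unfamiliar box with toys and tubing, begun 15 min after TSA in mice that had both. In each genotype there were 3 arrays of TSA in the standard cage, 3 of novelty with TSA, 3 of novelty with vehicle (DMSO and saline) and 5 standard-cage controls, of which replicates 1 and 2 were naive mice and replicates 3 to 5 had vehicle. The control arrays also belong to a parallel study. For each array, RNA of 3 to 4 mice was pooled in equal amounts, and replicate error is therefore that of pools. Changes in cell numbers and in RNA per cell cannot be told apart in such tissue RNA.

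Levels are log2 expression values, differences are log2 differences ± SE from limma fitted over all 28 arrays with 1 mean per group, and adjusted p is Benjamini-Hochberg over the 19938 genes, with 0.05 as the threshold for calling a gene changed. The number of arrays limits the precision. All 9 measured hippocampal neuron markers lay above 6.10, the median level over genes. The arrays also fell into 4 sets that no label names and that were found from the values: the 4 naive arrays made up set 1, and 1 array of every TSA, novelty and vehicle group was in each of sets 2, 3 and 4. Array set accounted for a median of 55.8% of the variance of the 63 genes (5.60% for Setdb1 to 93.6% for Kmt2d), against 43.8% over all genes. Results are therefore given without and with a block for array set. In 3 arrays choroid plexus markers were raised by 1.11 to 1.51 on average (1 each of cbp+/- TSA in the cage, cbp+/- control and wild-type novelty with TSA), against -0.36 to 0.41 in the others. All 3 were arrays of set 2. Crebbp itself was at 8.97 to 9.77 in the arrays labelled cbp+/- and at 8.68 to 9.70 in wild-type arrays, a difference of 0.21 ± 0.12 without the block (adjusted p = 1.00) and of 0.21 ± 0.05 with it (adjusted p = 0.0660). It was higher in cbp+/- in 12 of 14 pairs matched by array set and condition, with means of 0.13, 0.23 and 0.31 in sets 2, 3 and 4, so it was not lower in the arrays labelled as lacking 1 copy. Whether its probes fall inside the disrupted sequence is not known here, and genotype is taken from the labels throughout.

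Of the 63 genes, 49 lay above the median level of all genes and 14 below it. Those below it included Ezhip, Kdm8, Setd4 and Setdb2, which the text calls dim, with mean levels of 4.75 for Ezhip, 5.96 for Kdm8, 5.53 for Setd4 and 5.02 for Setdb2. The Y-linked demethylase gene Kdm5d, which female mice lack, was listed at 3.50 to 4.10 and marks the level of a gene that is not there.

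The first comparison asked what TSA did to these genes, averaged over the 4 backgrounds of genotype and housing (12 TSA arrays against 16 without TSA). Kmt5b, which encodes the enzyme SUV420H1 that di- and trimethylates H4K20, fell by 0.60 on the log2 scale, to 0.658 of its level without TSA. Prdm15, a zinc finger transcription factor gene of the PRDM family, fell by 0.36. These were the only 2 of the 63 genes called without the block (3.17%), where 132 of all genes were called (0.662%), 89 of them higher (0.446%) and 43 lower (0.216%). With array set as a block 8 of the 63 were called (12.7%), against 899 of all genes (4.51%). Then 6 were lower (Kmt5b, Prdm15, Prdm10, Kdm4a, Kdm8 and Setd4), against 1.85% of all genes, and 2 were higher (Kdm3a and Kdm5b), against 2.66%.

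Kmt5b (transcript cluster 10460202, mouse chromosome 19) had levels of 7.24, 7.23 and 7.05 in cbp+/- TSA arrays in the cage, against 7.96, 7.92, 7.63, 7.88 and 7.67 in cbp+/- controls. In cbp+/- arrays under novelty it was at 6.83, 7.52 and 7.34 with TSA, against 7.64, 7.81 and 7.76 with vehicle. In wild-type arrays in the cage it was at 7.04, 6.88 and 7.02 with TSA, against 7.96, 7.93, 7.52, 7.74 and 7.47 in controls. Every TSA array of these 3 backgrounds lay below every array it was compared with. Under novelty the wild-type arrays had 6.82, 7.17 and 7.26 with TSA, against 7.63, 7.70 and 7.52 with vehicle, again without overlap. Across the table, 4 genes lay wholly lower with TSA in each of the 4 backgrounds (0.0201%), and Kmt5b was the only 1 of the 63 among them. None of the 63 was among the 5 genes that lay wholly higher (0.0251%). The averaged difference was -0.60 ± 0.07 (adjusted p = 0.000129), and -0.55 ± 0.06 with the array-set block (adjusted p = 4.37e-06). Matched by genotype, housing and array set, Kmt5b was lower with TSA in 12 of 12 pairs, by 0.26 to 0.87, with means of -0.62, -0.58 and -0.44 in sets 2, 3 and 4.

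**Figure D1:**
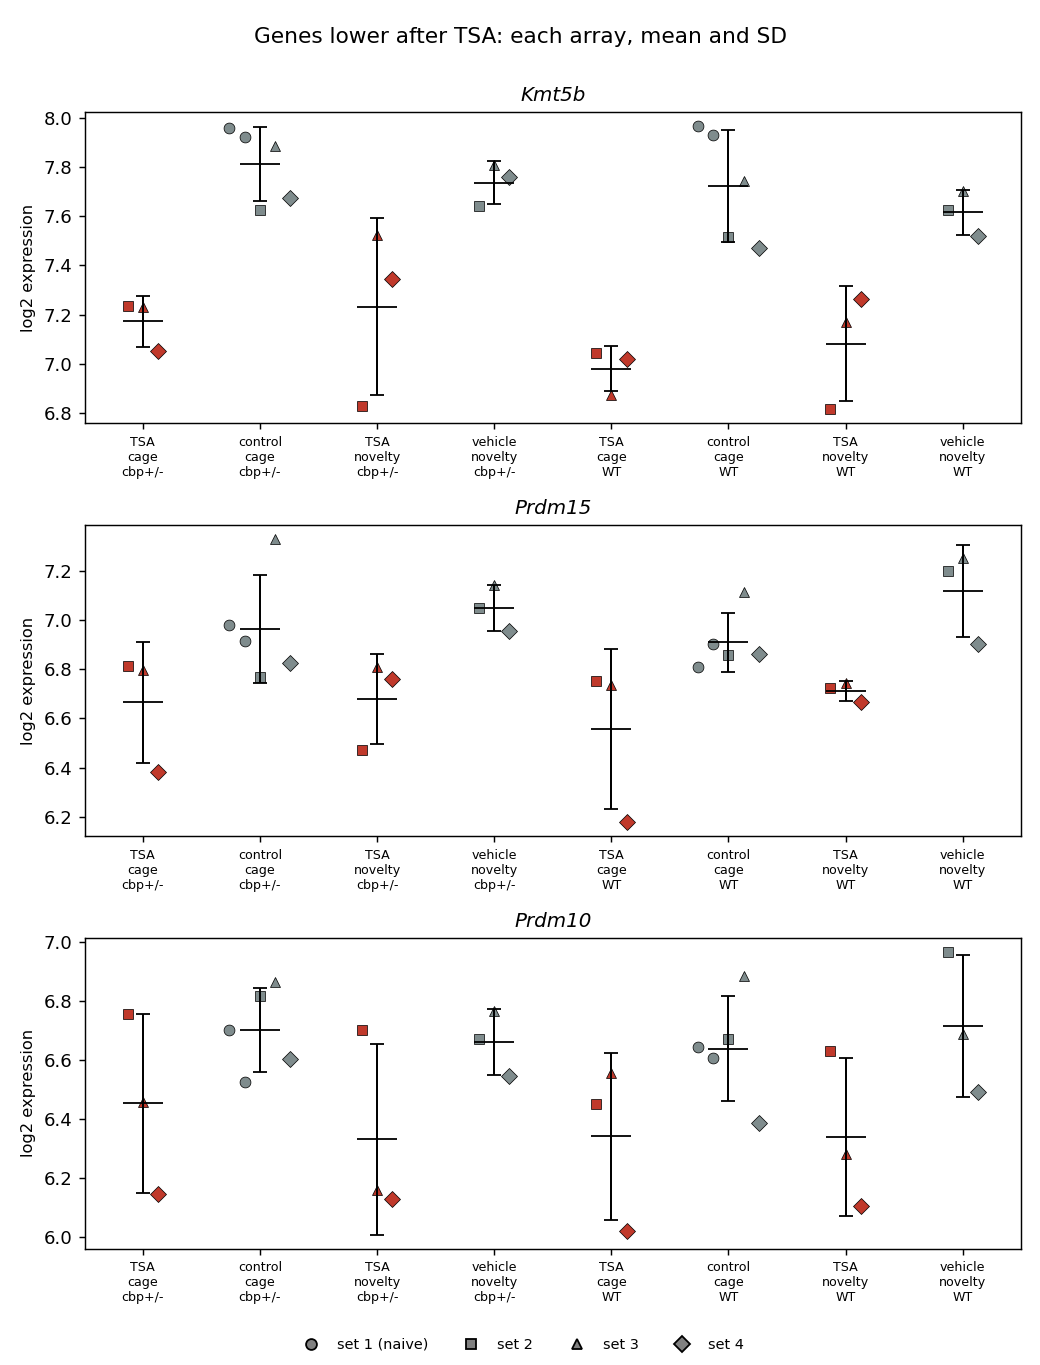
Log2 expression of Kmt5b, Prdm15 and Prdm10 on each of the 28 arrays (points; shapes mark the array set), with the group mean and SD as bars; TSA groups are red and groups without TSA grey. The Kmt5b points with TSA lie at 6.82 to 7.52 and below those of their own genotype and housing without TSA, while Prdm10 points overlap between groups.

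The other H4K20 enzyme genes did not pass the test. Kmt5a, for the enzyme that adds the first methyl group, differed by 0.06 ± 0.07 (95% interval -0.08 to 0.20, adjusted p = 0.954). Kmt5c, for the second enzyme of di- and trimethylation, differed by 0.07 ± 0.08 (-0.08 to 0.23, adjusted p = 0.922). Both intervals lie above the whole interval of Kmt5b, -0.76 to -0.45. In the set of 12 genes whose products read H4K20 methylation or act with it in DNA repair, L3mbtl3, a methyl-lysine reader of the MBT family, was called higher by 0.46 ± 0.07 (adjusted p = 0.000877), and the other 11 were not called. The measured genes nearest to Kmt5b on either side by RefSeq order were Lrp5, 1810055G02Rik, Chka and Tcirg1. Their differences were 0.16, 0.17, 0.06 and 0.27, all opposite in sign to Kmt5b, and only Tcirg1 was called and only with the block (0.23 ± 0.05, adjusted p = 0.00462).

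In single backgrounds, each with 3 TSA arrays, Kmt5b was called in 1 of 4 and only with the block. Without the block 0 of the 19938 genes were called by limma for TSA in any single background. Kmt5b differed by -0.64 ± 0.14 in cbp+/- mice in the cage (adjusted p = 0.578), by -0.50 ± 0.15 in cbp+/- mice under novelty (1.00), by -0.74 ± 0.14 in wild-type mice in the cage (0.120) and by -0.53 ± 0.15 in wild-type mice under novelty (1.00). These comparisons share arrays with the averaged one. With the block Kmt5b was the 1 gene of the 63 called in wild-type mice in the cage (-0.63 ± 0.11, adjusted p = 0.0240), where 8 of all genes were called (0.0401%). That call was lost without any 1 of 8 arrays (wild-type control replicates 1 to 4, wild-type cage TSA replicates 2 and 3 and cbp+/- control replicates 1 and 2), with adjusted p of up to 0.266. It was also lost without set 3 (0.681) or set 4 (0.0550), and with vehicle controls only (0.243), which is the same fit as without set 1. None of the 63 was called with the block in the other backgrounds, where 5 genes (0.0251%) were called in cbp+/- mice in the cage, 4 (0.0201%) in cbp+/- mice under novelty and 14 (0.0702%) in wild-type mice under novelty. At an unadjusted p under 0.05 without the block, 4 of the 63 passed in cbp+/- cage (6.35%) and 5 in cbp+/- novelty (7.94%). In wild-type cage and in wild-type novelty 3 passed each (4.76%). In the order cbp+/- cage, cbp+/- novelty, wild-type cage and wild-type novelty, 2.45%, 1.78%, 5.17% and 3.26% of all genes passed. With the block 11 (17.5%), 7 (11.1%), 6 (9.52%) and 10 (15.9%) of the 63 passed in the same order. Over all genes the blocked shares were 6.61%, 6.1%, 8.2% and 11.3%.

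Whether the TSA difference of Kmt5b itself differed was tested by interaction. It was 0.07 ± 0.15 less negative in cbp+/- than in wild-type mice (95% interval -0.23 to 0.37, adjusted p = 1.00). It was 0.17 ± 0.15 less negative under novelty than in the cage (-0.13 to 0.48, adjusted p = 1.00). Over all 63 genes, limma called 0 for either interaction with or without the block, as it did over all 19938 genes, and at an unadjusted p under 0.05 without the block 0 of the 63 passed in either, against 2.31% and 1.24% of all genes. With the block 3 of the 63 (4.76%) passed at an unadjusted p under 0.05 for genotype, against 8.09% of all genes. For housing 1 passed (1.59%), against 2.83%.

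The cage controls hold both naive and vehicle arrays. For Kmt5b the 6 vehicle arrays in the cage had 7.47 to 7.88, against 7.92 to 7.96 in the 4 naive arrays, a difference of -0.29 ± 0.11 that did not pass the test (adjusted p = 0.190). All naive arrays are in array set 1, so injection and array set cannot be told apart here. With vehicle controls only, the averaged TSA difference of Kmt5b was -0.55 (adjusted p = 0.00236).

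Prdm15 (transcript cluster 10441280, chromosome 16) is known in mouse embryonic stem cells as a regulator of growth factor signalling genes. Its levels in cbp+/- arrays in the cage were 6.81, 6.80 and 6.38 with TSA, against 6.98, 6.91, 6.77, 7.33 and 6.82 in controls. Under novelty they were 6.47, 6.81 and 6.76 with TSA in cbp+/- mice, against 7.05, 7.14 and 6.96 with vehicle. The first of these pairs of groups overlapped and the second did not. In wild-type arrays in the cage Prdm15 was at 6.75, 6.74 and 6.18 with TSA, against 6.81, 6.90, 6.86, 7.12 and 6.86 in controls. Under novelty the wild-type values were 6.73, 6.75 and 6.67 with TSA, against 7.20, 7.25 and 6.90 with vehicle. TSA arrays thus lay wholly below in 3 of 4 backgrounds. The share of all genes that did so in 3 backgrounds was not counted. The averaged difference was -0.36 ± 0.07 (adjusted p = 0.0187), and -0.37 ± 0.06 with the block (adjusted p = 0.000287). It was lower in 11 of 12 matched pairs, with means of -0.28, -0.44 and -0.39 in sets 2, 3 and 4, and the call without the block was lost with vehicle controls only (-0.37, adjusted p = 0.0952).

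Prdm10 (transcript cluster 10584071, chromosome 9), another zinc finger gene of the PRDM family, was called with the array-set block and not in the fit without it. In cbp+/- arrays it was at 6.75, 6.46 and 6.15 with TSA in the cage, against 6.70, 6.52, 6.82, 6.86 and 6.60 in controls. With novelty it was at 6.70, 6.16 and 6.13 with TSA, against 6.67, 6.76 and 6.55 with vehicle in the same genotype. The groups overlapped in both housings, and the array of set 2 was the highest of the TSA arrays in each. Wild-type arrays in the cage had 6.45, 6.55 and 6.02 with TSA, against 6.64, 6.61, 6.67, 6.88 and 6.39 in controls. Wild-type arrays under novelty had 6.63, 6.28 and 6.11 with TSA, against 6.97, 6.69 and 6.49 with vehicle. Within array sets Prdm10 was lower with TSA in 11 of 12 pairs, with means of -0.15, -0.44 and -0.41 in sets 2, 3 and 4. The averaged difference was -0.31 ± 0.09 without the block (adjusted p = 0.101) and -0.33 ± 0.06 with it (adjusted p = 0.000634). Without the block it was called when replicate 1 of cbp+/- novelty with TSA was left out (-0.36, adjusted p = 0.0485), and when the 3 arrays with raised choroid plexus markers were left out (-0.38, adjusted p = 0.0494). It was also called with array weights (-0.29, adjusted p = 0.0419) and with a block by label number (-0.31, adjusted p = 0.0169).

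The promoter sequences of the 3 genes with the largest decreases are shown so that they can be read beside these values. They are RefSeq sequences of GRCm38.p6, 250 bases before to 50 after a gene's start, 5′ to 3′ on the gene's strand. Each gene has 2 annotated starts in the table, numbered from the most upstream. The windows of Kmt5b lie at chr19:3767171-3767470 and chr19:3767639-3767938 on the + strand. Those of Prdm15 lie at chr16:97851801-97852100 and chr16:97851178-97851477 on the - strand. Those of Prdm10 lie at chr9:31280299-31280598 and chr9:31313177-31313476 on the + strand. Which starts are used in these samples is not shown by the arrays. Capitals mark 4 motifs on either strand: the GC box GGGCGG, the core TGACG of the cAMP response element, the ETS core CCGGAAG and the CCAAT box CCAAT.
Kmt5b start 1: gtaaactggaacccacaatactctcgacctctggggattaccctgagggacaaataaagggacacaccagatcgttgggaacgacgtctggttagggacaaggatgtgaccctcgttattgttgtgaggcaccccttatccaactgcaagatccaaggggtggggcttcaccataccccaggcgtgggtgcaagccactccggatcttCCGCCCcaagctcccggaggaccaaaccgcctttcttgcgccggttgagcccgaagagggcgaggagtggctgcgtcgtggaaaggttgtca
Kmt5b start 2: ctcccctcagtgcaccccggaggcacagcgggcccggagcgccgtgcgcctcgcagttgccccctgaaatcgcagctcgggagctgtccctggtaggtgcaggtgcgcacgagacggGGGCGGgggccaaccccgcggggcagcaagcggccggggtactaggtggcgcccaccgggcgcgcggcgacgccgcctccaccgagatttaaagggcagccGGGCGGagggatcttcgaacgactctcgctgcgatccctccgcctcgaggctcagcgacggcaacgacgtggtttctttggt
Prdm15 start 1: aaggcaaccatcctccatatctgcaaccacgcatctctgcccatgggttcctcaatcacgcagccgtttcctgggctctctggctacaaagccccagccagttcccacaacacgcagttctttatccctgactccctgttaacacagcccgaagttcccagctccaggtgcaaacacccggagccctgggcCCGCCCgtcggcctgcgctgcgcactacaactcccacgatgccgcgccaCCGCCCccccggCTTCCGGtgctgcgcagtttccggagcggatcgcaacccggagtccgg
Prdm15 start 2: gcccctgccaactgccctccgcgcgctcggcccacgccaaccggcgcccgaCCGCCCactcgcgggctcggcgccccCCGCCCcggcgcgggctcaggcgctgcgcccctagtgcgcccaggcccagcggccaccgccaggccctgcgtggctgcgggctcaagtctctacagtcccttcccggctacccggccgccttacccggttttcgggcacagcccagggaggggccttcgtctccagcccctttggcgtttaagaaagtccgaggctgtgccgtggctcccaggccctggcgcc
Prdm10 start 1: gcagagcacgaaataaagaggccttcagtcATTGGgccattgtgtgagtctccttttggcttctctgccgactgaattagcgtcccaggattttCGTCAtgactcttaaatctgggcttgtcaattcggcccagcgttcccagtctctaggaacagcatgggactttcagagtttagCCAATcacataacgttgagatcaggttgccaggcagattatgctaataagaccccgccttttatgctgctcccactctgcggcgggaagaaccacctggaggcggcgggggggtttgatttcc
Prdm10 start 2: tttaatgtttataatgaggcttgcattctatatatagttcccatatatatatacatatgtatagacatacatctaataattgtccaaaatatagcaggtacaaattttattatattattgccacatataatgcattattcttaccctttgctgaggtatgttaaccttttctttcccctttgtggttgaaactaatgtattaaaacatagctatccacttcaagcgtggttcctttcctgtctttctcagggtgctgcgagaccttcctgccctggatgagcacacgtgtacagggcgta

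These windows differ from each other, also between the starts of 1 gene. For Kmt5b, start 1 holds 16 CpG dinucleotides and 1 GC box and start 2 holds 38 CpG and 2 GC boxes. For Prdm15, start 1 holds 23 CpG, 2 GC boxes and an ETS core, and start 2 holds 34 CpG and 2 GC boxes with no ETS core. For Prdm10, start 1 holds 12 CpG, 2 CCAAT boxes, 1 core TGACG and no GC box, and start 2 holds 4 CpG and none of the 4 motifs. Over the 48 of the 63 genes with an entry (63 promoters), the median was 24 CpG per promoter, against 15 over 19177 promoters of the measured genes. A GC box was in 61.9% of the 63 promoters, against 49.2% of all promoters, and a CCAAT box in 49.2%, against 37.4%. The ETS core was in 12.7%, against 12.1%, and the core TGACG in 25.4%, against 25.0%. The full element TGACGTCA, which contains that core, was in 1.59%, against 2.37%. A match describes letters only.

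The 8 genes of H3K4 methylation, which include the MLL enzymes, had a median TSA difference of 0.08 and none was called. Kmt2a (MLL1) differed by 0.09 ± 0.12 and Kmt2b (MLL2) by 0.00 ± 0.11. Setd1b, a catalytic subunit of COMPASS, had the largest difference of the class, 0.25 ± 0.15 without the block (adjusted p = 0.745) and 0.17 ± 0.06 with it (adjusted p = 0.151). Its second row on the array gave 0.06 and 0.05, so the rows of Setd1b disagreed in size. None of the 15 other COMPASS subunit genes was called in either fit.

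The 5 genes of H3K9 methylation had a median of 0.01, and none was called. Ehmt1 (GLP) and Ehmt2 (G9a), whose products form the main H3K9 dimethyltransferase, differed by 0.01 ± 0.07 and 0.05 ± 0.09. Setdb1, which acts with the corepressor TRIM28, differed by -0.05 ± 0.04, with arrays at 7.38 to 7.66 with TSA, against 7.42 to 7.71 without. Its 95% interval, -0.12 to 0.02, was the narrowest among the genes of this class. Setdb2, a dim gene, had the largest difference of the class, 0.17 ± 0.10 without the block (adjusted p = 0.738) and 0.20 ± 0.07 with it (adjusted p = 0.0949). Of 12 genes for partners of these enzymes and HP1 proteins, 1 was called and only with the block: Zfp644, a zinc finger partner of G9a and GLP, lower at -0.15 ± 0.04 (adjusted p = 0.0364).

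Ezh1 and Ezh2, the catalytic subunits of Polycomb repressive complex 2 (PRC2), which methylates H3K27, differed by 0.02 ± 0.05 and 0.05 ± 0.07 with TSA. Ezhip, a PRC2 inhibitor gene that was dim here, differed by -0.15 ± 0.08 (adjusted p = 0.656) and by -0.14 ± 0.06 with the block (adjusted p = 0.188). Of 11 genes for other PRC2 subunits, Jarid2, an accessory subunit that recruits the complex, was called with the block alone (0.26 ± 0.05, adjusted p = 0.00489).

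The 4 genes of H3K36 methylation had a median TSA difference of -0.01 and none was called. Setd2, the gene of the enzyme that trimethylates H3K36, differed by -0.12 ± 0.06 (adjusted p = 0.576), and its second row by -0.14. Nsd1, for an H3K36 dimethyltransferase, differed by -0.06 ± 0.07. Among the other SETD genes, Setd5 differed by 0.03 ± 0.07 and Setd4, a dim gene, by -0.17 ± 0.06 (adjusted p = 0.269). Setd4 was at 5.27 to 5.72 with TSA, against 5.40 to 5.78 without, and was called with the block (-0.15 ± 0.04, adjusted p = 0.0498). That call sat at the threshold: it was kept when any 1 of only 4 arrays was left out (wild-type control replicate 4, wild-type cage TSA replicate 2, wild-type novelty vehicle replicate 3 or cbp+/- control replicate 3) and lost for each of the other 24 arrays, with adjusted p of 0.0273 to 0.104. The 5 SMYD genes had a median of 0.02, none was called, and Smyd4 had the largest difference, -0.07 ± 0.06.

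**Figure D2:**
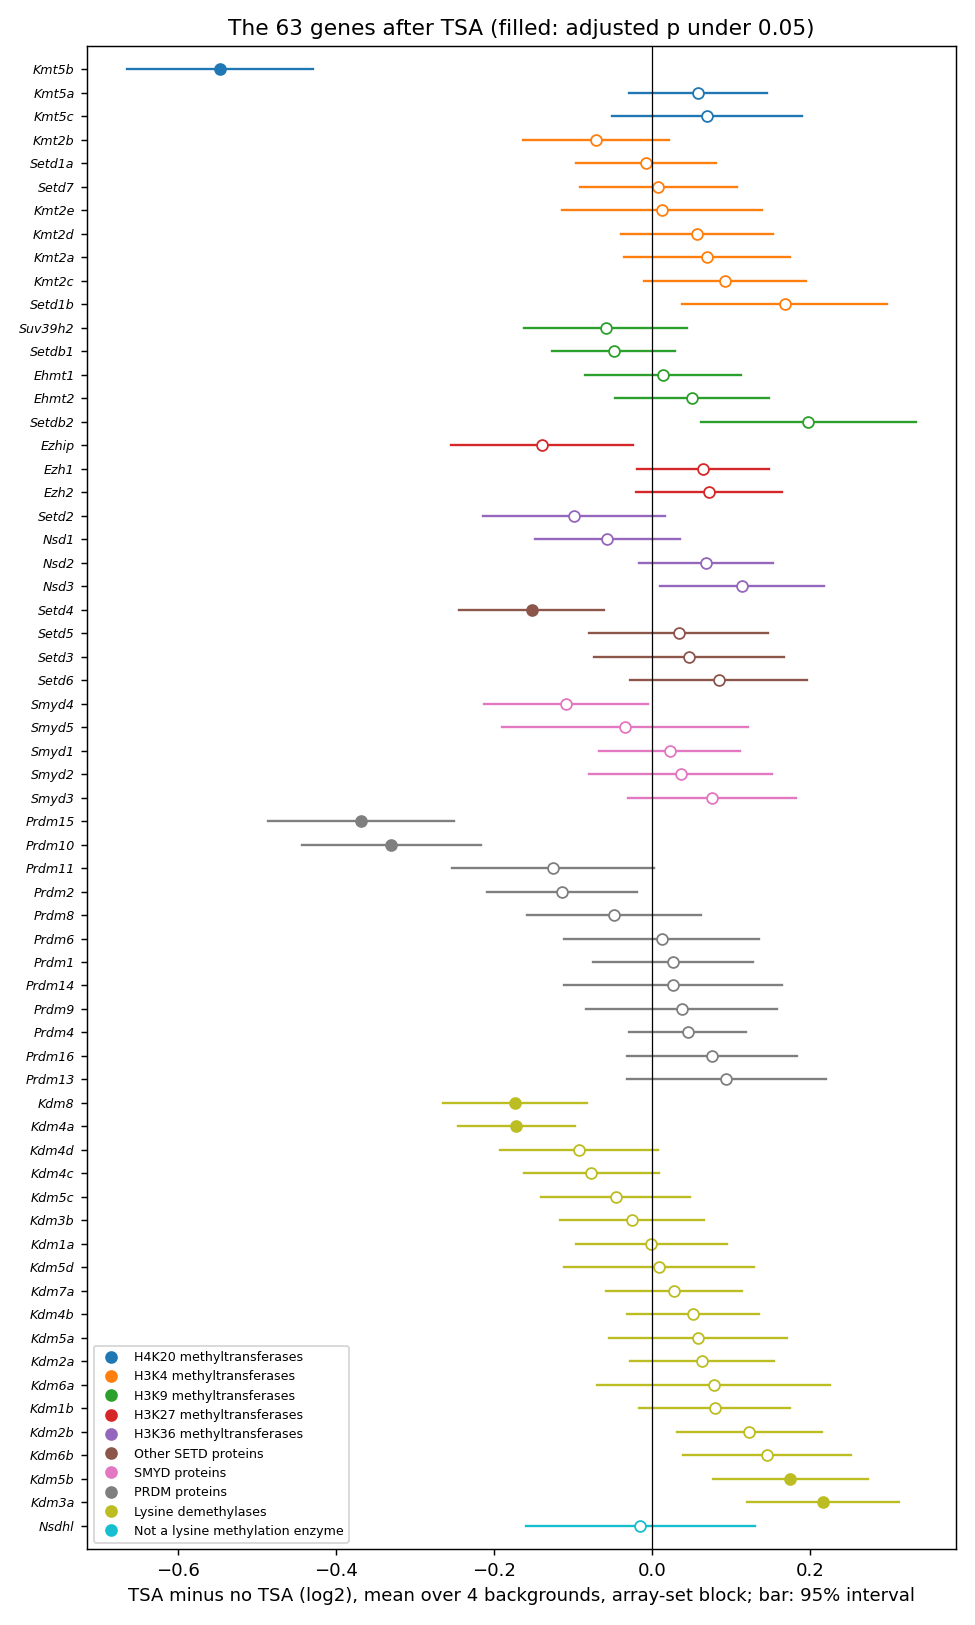
TSA difference (x axis, log2, TSA minus no TSA, averaged over 4 backgrounds, with array set as a block) of the 63 genes (y axis) with 95% intervals, coloured by role; filled points have adjusted p under 0.05. Kmt5b, Prdm15 and Prdm10 lie farthest to the left, at -0.55, -0.37 and -0.33, and the other genes lie within -0.17 to 0.22.

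The 12 PRDM genes, most of which encode zinc finger transcription factors, had a median of 0.03, so the falls of Prdm15 and Prdm10 were not shared by the family's middle. Prdm8, which acts in neuronal development in mice, differed by 0.06 ± 0.14 without the block and by -0.05 ± 0.05 with it (adjusted p = 0.769). The sign of that difference depended on the block. Prdm2 gave -0.09 from one row on the array and 0.01 from the other.

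Of the 18 lysine demethylase genes none was called for TSA without the block, and 4 were called with it. Kdm3a, which encodes a demethylase of mono- and dimethyl H3K9, was at 7.67 to 8.40 with TSA (median 8.05), against 7.64 to 8.18 without (median 7.86). It was higher in 10 of 12 matched pairs, and differed by 0.18 ± 0.06 without the block (adjusted p = 0.253) and by 0.22 ± 0.05 with it (adjusted p = 0.00688). Kdm5b, for a demethylase of H3K4, was at 8.43 to 9.36 with TSA, against 8.50 to 9.14 without, and higher in 11 of 12 pairs. Its difference was 0.14 ± 0.11 without the block (adjusted p = 0.861) and 0.18 ± 0.05 with it (adjusted p = 0.0331). Its levels followed the array sets, which held 77.8% of the variance of Kdm5b, and set 4 gave a mean difference of only 0.03, against 0.28 and 0.21 in sets 2 and 3. The Kdm5b call was lost when any 1 of 11 arrays was left out, with adjusted p of up to 0.0847. These were wild-type control replicates 3 and 4, cage TSA replicates 1 and 3, novelty vehicle replicate 2 and novelty TSA replicates 1 and 2, and cbp+/- control replicate 4, cage TSA replicate 2, novelty vehicle replicate 1 and novelty TSA replicate 1.

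Kdm4a, for a demethylase of trimethyl H3K9 and H3K36, was at 7.93 to 8.22 with TSA, against 7.98 to 8.45 without. The difference was small but of 1 sign in 12 of 12 matched pairs. It was -0.14 ± 0.05 without the block (adjusted p = 0.251) and -0.17 ± 0.04 with it (adjusted p = 0.00554). The 4 naive arrays were at 7.98 to 8.17, within the TSA range, against 8.17 to 8.45 in the 6 vehicle cage arrays. No matched pair holds a naive array, and injection and array set cannot be told apart among these controls. Kdm8, a jumonji protein gene that was dim here, was at 5.53 to 6.37 with TSA, against 5.75 to 6.29 without. It was lower in 10 of 12 pairs, with an averaged difference of -0.20 ± 0.07 without the block (adjusted p = 0.253) and -0.17 ± 0.04 with it (adjusted p = 0.0214). Without the 3 arrays of raised choroid plexus markers the blocked calls of Kdm8 (-0.15, adjusted p = 0.119), Kdm5b (0.18, adjusted p = 0.0819) and Setd4 (-0.18, adjusted p = 0.0644) were lost. Of the 63 genes, Kdm8 had the lowest unadjusted p for an interaction with housing and Kdm3a for one with genotype, with the block, and neither passed the adjustment. The TSA difference of Kdm8 under novelty minus that in the cage was -0.32 ± 0.09 (adjusted p = 1.00), and that of Kdm3a in cbp+/- minus that in wild-type mice was 0.23 ± 0.09 (adjusted p = 0.607).

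Leaving out 1 whole array set from the blocked fit ended several of the calls for the averaged TSA difference, and none of those of Kmt5b, Prdm15 and Prdm10 for that difference. Kdm3a was not called without set 2 (adjusted p = 0.138) or set 3 (0.0697), and Kdm4a not without set 3 (0.140) or set 4 (0.0652). Kdm8 was not called without set 2 (0.251), set 3 (0.106) or set 4 (0.0812), and Kdm5b not without set 1 (0.0503), set 2 (0.338) or set 3 (0.296). Setd4 was not called without any one of the 4 sets, with adjusted p of 0.0674 to 0.251.

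**Figure D3:**
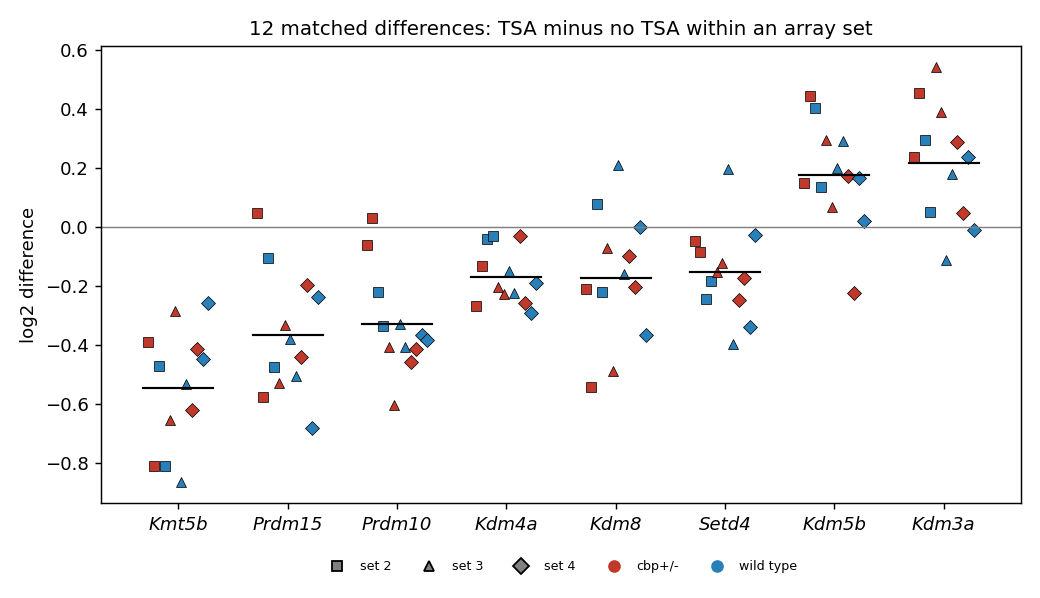
Differences between matched arrays (y axis, log2, TSA minus no TSA of the same genotype, housing and array set) for the 8 genes called with the array-set block (x axis); each of 12 points is 1 pair, its colour the genotype and its shape the array set, and the line is the mean. All 12 points of Kmt5b and of Kdm4a lie below 0, and 11 of 12 of Kdm5b above it.

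The other 14 demethylase genes were not called in either fit, with differences from -0.17 for Kdm4c to 0.17 for Kdm6b without the block. They included Kdm1a (LSD1, a demethylase of H3K4), at -0.03 ± 0.06, Kdm5c (H3K4), at -0.02 ± 0.10, and Kdm6a (H3K27, X-linked), at 0.02 ± 0.09. Of 10 genes for partners of LSD1, Rcor2, a corepressor of the CoREST family, was called higher without the block (0.23 ± 0.05, adjusted p = 0.0274). With the block Rcor1 (0.30 ± 0.05, adjusted p = 0.000254) and Hdac1, a deacetylase that TSA inhibits (0.23 ± 0.04, adjusted p = 0.00105), were called too.

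Among genes of protein methylation outside the name rule, each of 4 lists held 1 call with the block, where 4.51% of all genes were called. Setmar, a SET domain gene, was lower, at -0.47 ± 0.07 (adjusted p = 0.000146), 1 of 11 other lysine methyltransferases. Tyw5, which modifies transfer RNA, was lower, at -0.26 ± 0.07 (adjusted p = 0.0232), 1 of 13 other jumonji genes. Prmt3, for an arginine methyltransferase of ribosomal protein, was lower, at -0.20 ± 0.06 (adjusted p = 0.0415), 1 of 10 of its family. Mtrr, which keeps methionine synthase active, was lower, at -0.23 ± 0.06 (adjusted p = 0.0209), 1 of 12 methyl donor genes. None of these 4 lists held a call without the block.

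As a list, the 63 genes had a median TSA difference of 0.03, against 0.01 over all genes, and of 0.03, against 0.00, with the block. At an unadjusted p under 0.05, 9 of the 63 (14.3%) passed without the block, against 8.73% of all genes, and 16 (25.4%) with it, against 15.9%. Of the cell type lists, choroid plexus markers ran from -0.36 to 1.34 as mean deviation in TSA arrays and from -0.33 to 1.51 without TSA, with 0 of 13 called by limma in either fit. Of 8 immature neuron markers Sox11 was called higher without the block (0.58 ± 0.07, adjusted p = 0.000129), and Sox4 was called as well with it (0.35 ± 0.07, adjusted p = 0.00512). The other lists held 1 call in meningeal markers (Mgp, -0.31 ± 0.06, adjusted p = 0.00428) and 1 in hippocampal neuron markers (Neurod6, -0.26 ± 0.07, adjusted p = 0.0268), both only with the block, and 0 in oligodendrocyte, astrocyte and microglial markers. The part of these cells in the differences of the 63 genes was not tested. Without the 3 arrays of raised choroid plexus markers Kmt5b differed by -0.59 (adjusted p = 0.00127) and Prdm15 by -0.39 (adjusted p = 0.0326).

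The second comparison asked what novelty did, averaged over genotype and injection (12 novelty arrays against 16 in the standard cage). Kdm7a, which encodes a demethylase of H3K9 and H3K27, was the 1 gene of the 63 called without the block (1.59%), among 38 genes called, all higher (0.191%). With the block Kdm7a and Kdm6b, the gene of a demethylase of trimethyl H3K27, were called, 2 of 63 (3.17%) against 95 of all genes (0.476%). Both were higher, as were 94 of the 95 (0.471%), and 1 gene outside the 63 was lower (0.00502%). At an unadjusted p under 0.05, 4 of the 63 (6.35%) passed without the block, against 3.2% of all genes, and 6 (9.52%) with it, against 8.21%.

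Kdm7a (transcript cluster 10544148, chromosome 6) was at 9.55, 9.42 and 9.74 in cbp+/- arrays of novelty with vehicle, against 9.23, 9.20, 9.33, 9.12 and 9.36 in cbp+/- controls. With TSA the cbp+/- arrays had 9.64, 9.45 and 9.58 under novelty, against 9.36, 9.22 and 9.50 in the cage. Only the groups without TSA were free of overlap in this genotype. Novelty groups lay wholly higher in all 4 backgrounds for 8 genes (0.0401%), none of them among the 63. In wild-type arrays Kdm7a was at 9.66, 9.32 and 9.46 with novelty and vehicle, against 9.36, 9.29, 9.37, 9.11 and 9.42 in controls. With TSA the wild-type arrays had 9.69, 9.52 and 9.49 under novelty, against 9.14, 9.17 and 9.43 in the cage, with no overlap. The averaged difference was 0.25 ± 0.05 (adjusted p = 0.0455), and 0.25 ± 0.04 with the block (adjusted p = 0.00132). Kdm7a was higher with novelty in 12 of 12 matched pairs, with means of 0.34, 0.27 and 0.14 in sets 2, 3 and 4, and its second row on the array gave 0.29 ± 0.05 with the block (adjusted p = 0.000639 over all rows). Without the block the call was at the threshold: it was kept when any 1 of 8 arrays was left out and lost for each of the other 20, with adjusted p of 0.0210 to 0.117. The 8 were cbp+/- novelty with vehicle replicate 2, cbp+/- novelty with TSA replicate 2, cbp+/- cage TSA replicate 3, cbp+/- control replicates 3 and 5, wild-type novelty with vehicle replicate 2, wild-type cage TSA replicate 3 and wild-type control replicate 3. With the block it was not called without set 2 (0.21, adjusted p = 0.106) or set 3 (0.24, adjusted p = 0.0975), and without the block it was not called with vehicle controls only (adjusted p = 0.269) or without the 3 arrays of raised choroid plexus markers (0.179).

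Kdm6b (transcript cluster 10387372, chromosome 11) varied more with the array set, which held 74.4% of its variance. In cbp+/- arrays it was at 7.56, 7.75 and 7.14 with novelty and vehicle, against 7.07, 7.04, 7.44, 7.41 and 6.68 in controls. With TSA it was at 8.03, 7.60 and 7.15 under novelty in that genotype, against 7.81, 7.61 and 6.69 in the cage. The array of set 4 was the lowest in each of these groups, and the groups overlapped. In wild-type arrays Kdm6b was at 7.87, 7.66 and 7.15 with novelty and vehicle, against 7.09, 7.16, 7.39, 7.33 and 6.96 in controls. With TSA the wild-type values were 8.09, 7.78 and 7.26 under novelty, against 7.64, 7.58 and 6.87 in the cage. The averaged difference was 0.32 ± 0.14 without the block (adjusted p = 1.00) and 0.30 ± 0.05 with it (adjusted p = 0.00157), higher in 11 of 12 matched pairs, with means of 0.32, 0.22 and 0.37 in sets 2, 3 and 4. Without set 4 the blocked difference of Kdm6b was not called (0.27, adjusted p = 0.0627). For TSA Kdm6b differed by 0.15 ± 0.05 with the block (adjusted p = 0.118).

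**Figure D4:**
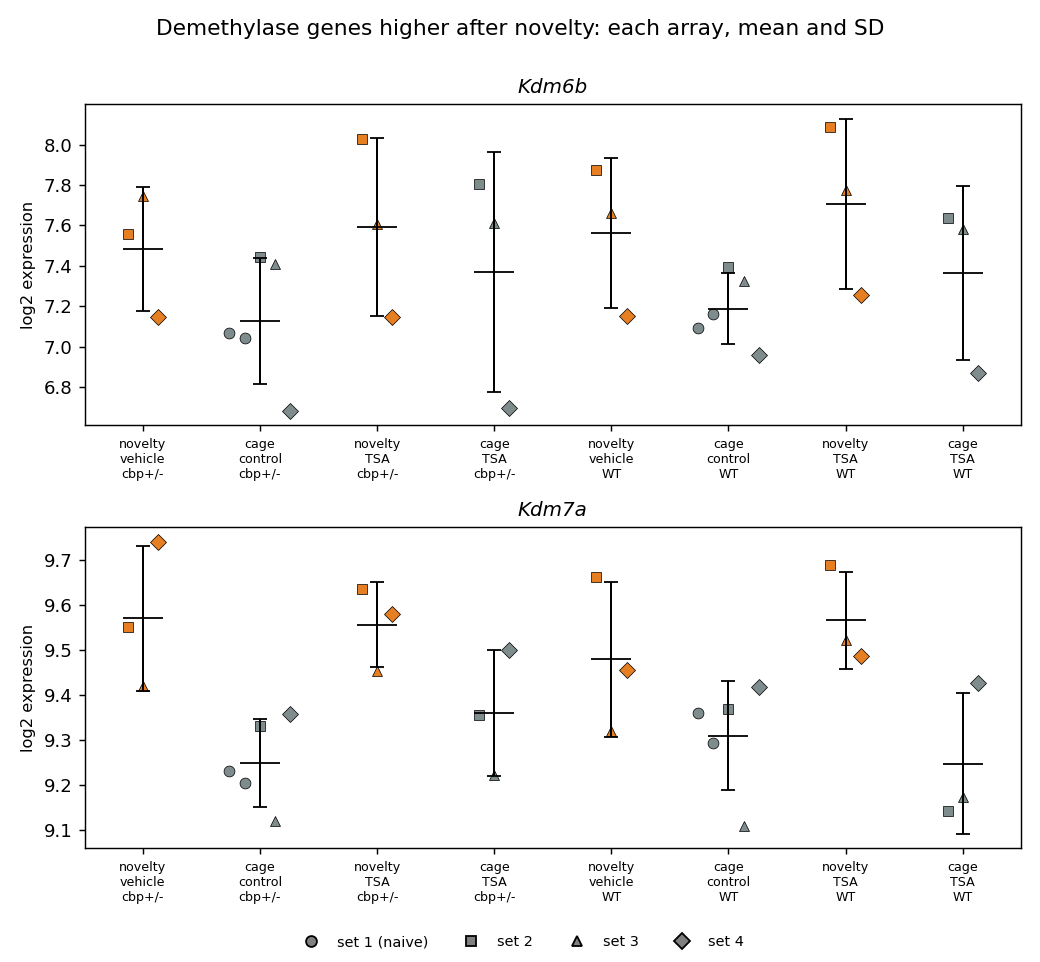
Log2 expression of Kdm6b and Kdm7a on each of the 28 arrays (points; shapes mark the array set), with the group mean and SD as bars; novelty groups are orange and standard-cage groups grey. Kdm7a lies at 9.32 to 9.74 with novelty and at 9.11 to 9.50 in the cage, and Kdm6b at 7.14 to 8.09 with novelty and at 6.68 to 7.81 in the cage.

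The promoter of Kdm7a (chr6:39206724-39207023, - strand, GRCm38.p6, RefSeq) is shown as the one among these novelty genes with an entry, with the same capitals as above.
Kdm7a: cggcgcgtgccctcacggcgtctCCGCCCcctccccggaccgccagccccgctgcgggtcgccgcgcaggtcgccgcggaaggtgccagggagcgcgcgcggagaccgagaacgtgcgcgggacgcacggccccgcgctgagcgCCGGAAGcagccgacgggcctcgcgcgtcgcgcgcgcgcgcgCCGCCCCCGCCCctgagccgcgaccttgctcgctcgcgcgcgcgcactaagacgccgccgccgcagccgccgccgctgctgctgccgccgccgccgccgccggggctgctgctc

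It holds 65 CpG dinucleotides, the highest number among the 63 promoters, with 3 GC boxes and 1 ETS core. The core TGACG was not found in this window.

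In single genotypes none of the 63 was called for novelty. Without the block 5 genes (0.0251%) were called in cbp+/- mice and 7 (0.0351%) in wild-type mice, and with it 17 (0.0853%) and 22 (0.11%). Kdm7a differed by 0.32 ± 0.10 in cbp+/- mice with vehicle (adjusted p = 1.00) and by 0.17 ± 0.10 in wild-type mice (adjusted p = 1.00). Kdm6b differed by 0.35 ± 0.26 in cbp+/- mice and by 0.38 ± 0.26 in wild-type mice (adjusted p = 1.00 in both). At an unadjusted p under 0.05 without the block, 1 of the 63 (1.59%) passed in cbp+/- mice, against 1.96% of all genes. In wild-type mice 0 passed, against 2.46%. With the block 2 (3.17%) passed in cbp+/- mice, against 4.14%, and 3 (4.76%) in wild-type mice, against 5.9%. The genes called for TSA were not called for novelty: Kmt5b differed by -0.01 ± 0.07 with novelty (95% interval -0.16 to 0.15), Prdm15 by 0.12 ± 0.07 and Prdm10 by -0.02 ± 0.09. Kdm7a in turn differed by 0.03 ± 0.05 with TSA (-0.08 to 0.14).

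The third comparison set cbp+/- arrays against wild-type arrays (14 each). limma called 0 of the 63 genes in either fit, 0 of all genes without the block and 132 (0.662%) with it. At an unadjusted p under 0.05 without the block 1 of the 63 (1.59%) passed, against 2.6% of all genes. With the block 4 passed (6.35%), against 11.9%. The 63 differences lay between -0.08 and 0.14. The largest was that of Kmt5b, 0.14 ± 0.05 with the block (adjusted p = 0.287), with 6.83 to 7.96 in cbp+/- arrays, against 6.82 to 7.96 in wild-type arrays. Kdm1a differed by 0.13 ± 0.04 with the block (adjusted p = 0.208). Among controls alone (5 against 5) limma called 0 genes in both fits. There 0 of the 63 passed at an unadjusted p under 0.05 without the block, against 1.02% of all genes. With the block 1 passed (1.59%), against 4.14%.

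The last comparison asked whether the 6 vehicle controls differed from the 4 naive controls. Here 480 genes were called (2.41%), 216 of them higher (1.08%) and 264 lower (1.32%), and of the 63 only Kdm4c, for a demethylase of trimethyl H3K9. Kdm4c was at 7.62 to 7.88 in vehicle arrays, against 8.07 to 8.29 in naive arrays, and differed by -0.46 ± 0.09 (adjusted p = 0.00594). Its ranges did not overlap, and neither did those of Kmt5b, Ezh1, Kdm4a, Nsdhl and Prdm8, which were not called. The share of all genes without overlap in this comparison was not counted, so this does not set these genes apart. The Kdm4c call was lost without replicate 1 of the wild-type controls (-0.43, adjusted p = 0.0564) or of the cbp+/- controls (-0.41, adjusted p = 0.0628). Injection and array set cannot be told apart in this comparison. At an unadjusted p under 0.05, 9 of the 63 passed (14.3%), against 14.4% of all genes. For TSA, Kdm4c differed by -0.17 ± 0.08 without the block (adjusted p = 0.513) and by -0.08 ± 0.04 with it (adjusted p = 0.387).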

How the data were processed

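RNA was labelled with biotin and hybridised to Affymetrix Mouse Gene 1.0 ST arrays. The values are log2 expression deposited by the authors, 1 column per array, normalized by RMA per the submitters' processing notes in GeneSpring GX 11 per the labels' protocols. For the genome build and annotation version, nothing is given in the sources used here. Of 35556 rows, 21789 had 1 gene symbol in the platform annotation, 1621 had several and 12146 had none. Rows with 1 symbol were reduced to the row with the highest mean over all arrays, which gave 19938 genes. RMA shrinks large ratios of dim probes, so differences of dim genes may be understated. Array medians were 5.46 to 5.63.

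Groups came from the sample titles. limma 3.58.1 in R 4.3.3 fitted 8 group means over all 28 arrays, with Benjamini-Hochberg adjustment over 19938 genes and a threshold of 0.05. Vehicle and naive controls were compared in a fit with the controls split by injection. The averaged TSA fit without the block was tested on simulated data with independent noise per array and no array sets. Of 200 genes changed by 0.5, 88.5% were recovered, and 21 unchanged genes were called. The blocked fit was not simulated, and the simulation does not show how either fit behaves with array sets. Same-numbered TSA and novelty arrays deviated together (r of 0.52 to 0.80 over 45 pairs), whereas controls and same-numbered treated arrays did not (-0.58 to 0.23 over 36 pairs). Controls with replicate numbers 3, 4 and 5 went with treated replicates 1, 2 and 3 (0.41 to 0.74), which defines sets 2, 3 and 4. Controls and treated arrays of different sets had r of -0.59 to 0.43 over 144 pairs, so these ranges overlap. Pairs of controls had 0.33 to 0.70 within a set and -0.38 to 0.15 between sets. Treated pairs of different sets had -0.63 to -0.07. No label states what the sets are.

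The alternatives were blocks by array set or label number, vehicle controls only, an intensity trend, array weights, repeated quantile normalization, no dim genes, the mean of a gene's rows, and leaving out single arrays, array sets or the 3 arrays with raised choroid plexus markers. The genes named are those called in any comparison, the largest TSA difference in each role class, and genes of lists of partners, pathways and cell types. The members and lists were chosen with earlier results of these data known. The p-values measure the spread between pools of mice. Promoters were matched by symbol in RefSeq tables of GRCm38.p6, for 48 of the 63 genes.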

Additional observations from a re-analysis of the deposited data

Results flagged for a closer look

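In 4 of the 64 group and gene combinations examined in groups of 5 arrays, 1 array stood apart from the rest of its group by more than Dixon's 95% limit. Chance gives about 1 in 20 where all arrays are alike, but these groups of 5 hold arrays of all 4 array sets. For Ehmt1 the array was replicate 4 of the cbp+/- controls, at 7.42, against 7.19 to 7.24 in the rest of that group. It is the only array of set 3 there, and array set held 57.3% of the variance of Ehmt1. Ezh2 was at 6.70 in cbp+/- control replicate 3, against 6.98 to 7.03, and that array is one of the 3 with raised choroid plexus markers. It is also the only array of set 2 in its group, and array set held 65.0% of the variance of Ezh2. Kmt5c was at 6.69 in wild-type control replicate 2, against 6.84 to 6.90. Setd4 was at 5.78 in wild-type control replicate 5, the only array of set 4 in its group, against 5.52 to 5.58.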

How the results depend on the processing

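Kmt5b stayed lower with TSA and called in all 38 alternatives to the fit without the array-set block (-0.64 to -0.55). These include that block itself, alone and with vehicle controls only. Kmt5b was also called in all 34 alternatives to the blocked fit (-0.60 to -0.50), among which vehicle controls only and leaving out set 1 are the same fit. Of the 63 genes, 2 were called for TSA averaged over backgrounds. The count became 8 with the replicate block by array set, 4 with the replicate block by label number, 1 with vehicle controls only, 6 with vehicle controls and the array-set block, 6 with array weights and 3 without the choroid plexus arrays, and it was 2 to 3 when single arrays were left out. With the array-set block the 8 became 5 without the choroid plexus arrays, 4 without set 2 and 3 without set 3. It became 6 without set 1, the same fit as vehicle controls with that block, and 6 to 8 without single arrays. Leaving out set 4 ended the calls of Kdm4a, Kdm8 and Setd4. For TSA in wild-type mice in the cage the count of 0 became 1 with either block and 12 with array weights. The blocked count of 1 became 0 without set 3 or 4, and with vehicle controls only, the same fit as without set 1. In cbp+/- mice in the cage 0 became 1 with array weights. For novelty the count of 1 became 2 with the array-set block and with vehicle controls and that block, and 0 with vehicle controls only, with an intensity trend, without dim genes and without the choroid plexus arrays. Its blocked count of 2 became 1 without set 2, 3 or 4. Over all genes novelty calls were 38 without the block and 95 with it. They were 89 with vehicle controls and that block, 23 with vehicle controls only and 34 with an intensity trend. Without dim genes they were 28, and without the choroid plexus arrays 32. In the blocked fit they were 75, 67 and 64 without sets 2, 3 and 4. For vehicle against naive controls the count of 1 became 31 with the block by label number and 6 with array weights. Controls and same-numbered treated arrays did not deviate together, so the label block does not match them. For single backgrounds, for vehicle against naive controls and for fits without single arrays, no share of all genes is given at these settings. Those member counts thus cannot be set against a share. Without single arrays the counts of the 63 were 0 to 1 in the single TSA backgrounds and in novelty, 2 to 2 in blocked novelty and 0 to 2 in vehicle against naive. No direction of a called gene reversed. Over all genes TSA calls were 132, against 899 with the array-set block, 567 with the label block and 48 with vehicle controls only. They were 730 with vehicle controls and the array-set block, 461 with array weights, 69 without dim genes and 87 without the choroid plexus arrays. In the blocked fit the 899 became 534 without the choroid plexus arrays. The 899 became 247 without set 2, 288 without set 3 and 532 without set 4. The dim-gene filter left Ezhip, Kdm8, Setd4 and Setdb2 untested, and the fit with only the arrays compared is the same as the reported one for averaged differences. Probe signal over background was not analysed here, so the limit for dim genes is unknown.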
